A study of Homo sapiens with 12 samples.

Results

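The comparison described here is that of condition B with condition A under the sgRNA named 6T, gene by gene across the transcriptome of HEK293T cells. The table of this comparison listed 26485 genes. Its members are the 14051 genes whose normalized read count, averaged over both conditions, was 10 or more. Of the rest, 7239 were at 0 in both conditions and 5195 had a mean above 0 but under 10. The difference of each gene is given as log2((B + 1)/(A + 1)), where A and B are the authors' mean normalized read counts, so a value of 1 is a doubling in B, except at low counts, where the added 1 makes it smaller.

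HEK293T, a line from embryonic kidney, expresses the SV40 large T antigen. All cells were transfected with polyethylenimine and a PX330-GFP type plasmid, and both groups under 6T received the same sgRNA: PX330-GFP-cas9-6T-sgRNA in 3 libraries and PX330-GFP-noCas9-6T-sgRNA in 3 libraries. Of the 12 libraries of the study, the other 6 carried the luciferase sgRNA in the same plasmid pair, with and without Cas9, and are used below only where a difference under 6T is set beside them. The deposited columns do not say whether condition A or condition B held Cas9, so all differences are those of B relative to A. The sources used here name neither the target of the 6T sgRNA nor the share of cells that took up plasmid, and polyA RNA was made from whole wells.

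Cas9 is a bacterial nuclease that cuts DNA where a guide RNA pairs with it. Plasmid DNA and foreign RNA inside a cell can be detected by innate sensors that switch on interferon-stimulated genes through interferon regulatory factors. Stress on protein synthesis acts through another route, in which the transcription factors ATF4 and DDIT3 raise genes such as CHAC1, while misfolded protein in the cytosol raises heat-shock genes through HSF1.

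Reads of the single libraries were worked out from the deposited means, and the libraries are called A1 to A3 and B1 to B3 in order of size factor, with no link to replicate numbers in the labels. The A libraries held 6350222 to 8270317 gene reads each, and the B libraries 6653815 to 8292511. All 12 marker genes of HEK293T cells passed the minimum, with summed levels of 15400 to 16740 normalized reads in A and 14860 to 16060 in B. Of 8 blood markers 2 passed, with sums of 73.6 to 96.8 in A and 60.1 to 101.6 in B, and the defining T cell and red cell markers CD3E and HBB were at 0. Of 5 fibroblast markers 4 passed, with sums of 639 to 747 in A and 616 to 713 in B, with COL1A1 at 517 and 497. Of 3 liver markers 0 passed, with sums of 6.12 to 10.8 in A and 3.03 to 18.2 in B, and of 3 skeletal muscle markers 1 passed, with sums overlapping between conditions. The part of these markers in the results was not tested. In such bulk RNA, fewer cells of a kind and less RNA per cell cannot be told apart.

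Libraries A2 and B1, which belong to different conditions, stood apart together. Over 11705 genes with a mean of 50 or more, the first principal component held 49.8% of the variance and gave A2 a weight of 0.717 and B1 one of 0.379, against −0.115 for A1, −0.387 for A3, −0.329 for B2 and −0.266 for B3. Their deviations from the gene means correlated at a Pearson's r of 0.451 across these genes, which are not independent replicates, while A2 with A3 gave −0.574 and B1 with B2 gave −0.560. The third component, with 10.9% of the variance, was the one whose weights differed most between conditions. Condition is 1 of the 5 independent contrasts among 6 libraries, and it held 13.4% of the variance. The median SD within a condition was 0.159 on the log2 scale, against a median absolute difference between conditions of 0.0895 for the same genes. Results are therefore also given without A2 and B1.

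Differences between the conditions were small for nearly all genes and largest for the antiviral genes IFIT2, OASL and IFIT3. Condition B had the higher mean for 5935 genes and the lower mean for 8116, with a median of −0.03. Condition B was 1.5-fold or more higher for 147 genes (1.05%) and 1.5-fold or more lower for 83 (0.591%), but without B2 the direction turned, to 105 higher and 187 lower. Of these 230 genes, 197 had a mean of 10 to 50, and among the 11724 genes with a mean of 50 or more there were 33, of which 28 were higher. Among 2481 genes with a mean of 1000 or more the 1.5-fold genes were PPP1R14B and CHCHD10, both higher. A doubling was passed by 10 genes upward, LOC103091866 and RPGRIP1 among them, and 6 downward. All 10 had a mean of 10 to 50. The 6 were IFIT2, OASL, IFIT3, IFIT1, the pseudogene PTTG3P and the RNA EPHA5-AS1.

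**Figure D1:**
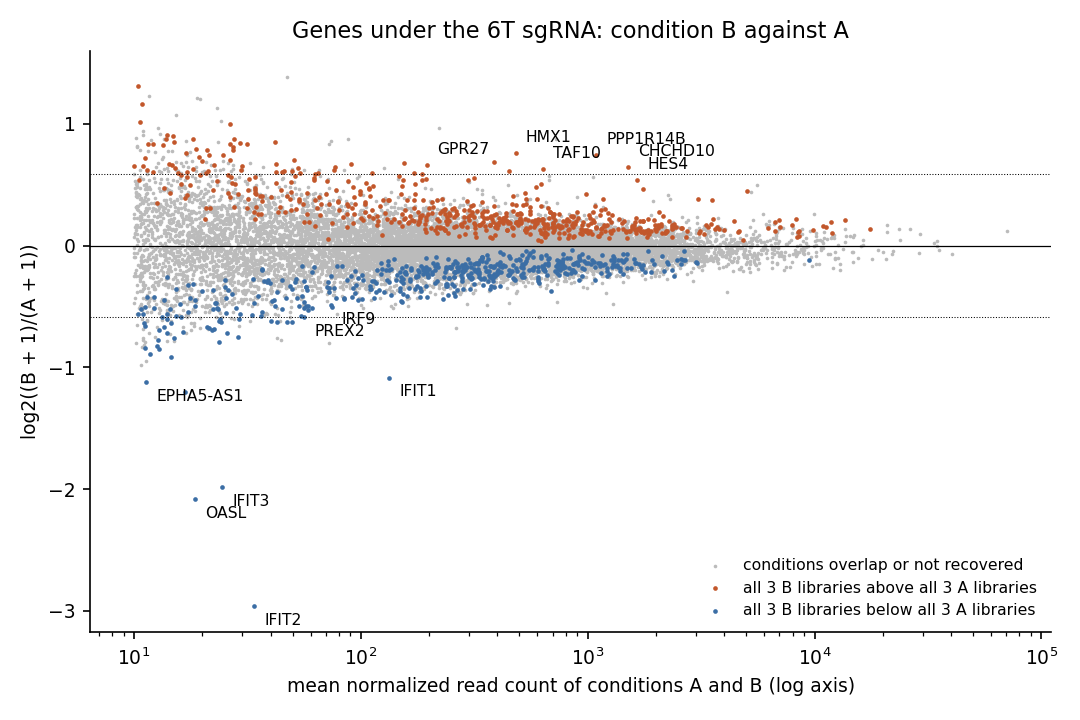
Each point is 1 of 14051 genes, with the mean normalized read count of both conditions on a log axis and log2((B + 1)/(A + 1)) on the vertical axis. Dotted lines mark a 1.5-fold difference, coloured points are genes whose 3 libraries of one condition all lay beyond those of the other (590 higher, 517 lower), and IFIT2, OASL and IFIT3 lie far below the rest.

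Few genes passed a test. The authors' deposited DESeq test called 8 of 19246 genes at an adjusted p under 0.05 (0.0416%), 7 of them among the 14051 members (0.0498%), while CCL5 had a mean of 9.73, just under the minimum. At an unadjusted p under 0.05 that test held 101 members higher in B (0.719%) and 43 lower (0.306%). On the log2 scale of the recovered reads, limma called 0 of 14032 genes at an adjusted p under 0.05, with 330 at an unadjusted p under 0.05, of which 198 were higher. With voom weights limma also called 0, with 354 at that level. A limma fit with the spread shared over all 12 libraries called 3, CHCHD10 higher and IFIT2 and CCL5 lower. All 3 libraries of B lay above all 3 of A for 590 of 14032 genes (4.2%) and below them for 517 (3.68%). With 3 libraries against 3, some genes separate in this way without any difference. Neither share was above that expected if the 6 libraries were assigned to the conditions at random, so separation is not a call. Separate cultures are not stated for the replicates, and p-values then reflect only how much these libraries spread.

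IFIT2, OASL and IFIT3 were the members furthest from 0, and IFIT1 was the member furthest from 0 at a mean of 50 or more. IFIT1, which encodes a protein that binds viral RNA lacking the host cap methylation, had 166, 213 and 165 normalized reads in A1, A2 and A3 and 115, 69.8 and 70.4 in B1, B2 and B3. IFIT3, a partner of IFIT1 and IFIT2, had 46.2, 46.2 and 26.9 in A and 3.03, 15.4 and 9.55 in B. Neither gene overlapped between conditions, B1 being the highest of the B libraries for IFIT1 and the lowest for IFIT3. IFIT1 fell by 1.08 on the log2 scale and IFIT3 fell by 1.98, with adjusted p of 0.0322 and 0.00629 in the authors' deposited DESeq test. Without A2 and B1 the differences were −1.23 for IFIT1 and −1.48 for IFIT3. The IFIT genes resemble each other in sequence, so the split of reads among them is uncertain.

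The promoters of IFIT1 and IFIT3 are shown. No promoter was matched in RefSeq for IFIT2 and OASL, which fell further, so theirs were not searched. The core of the interferon-stimulated response element was searched as GAAANNGAA on both strands, where N is any base, in the 300 bases from 250 before to 50 after the start of transcription. Each promoter holds 2 matches, in capitals below, where they read in reverse complement. Of 27305 promoters in the RefSeq table (build GRCh38.p14), 8.29% hold at least 1 match, as do 5.91% of the 10436 that belong to members.
IFIT1, chr10:89392503-89392622, plus strand: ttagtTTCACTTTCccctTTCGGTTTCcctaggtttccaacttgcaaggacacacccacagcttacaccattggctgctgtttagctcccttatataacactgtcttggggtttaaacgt
IFIT3, chr10:89327842-89327961, plus strand: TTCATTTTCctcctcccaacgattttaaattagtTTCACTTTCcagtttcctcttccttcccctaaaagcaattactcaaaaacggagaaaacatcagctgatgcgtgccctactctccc
A match is a run of letters, and binding was not measured here.

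One more interferon gene was among the 12 genes of higher level furthest down. IRF9, the DNA-binding subunit of the factor ISGF3, had 106, 72.4 and 80.8 normalized reads in A and 45.5, 67.0 and 71.6 in B. The B libraries lay below those of A by less than 1 read in the closest pair, B3 and A2. Its promoter in the RefSeq table holds 0 matches of GAAANNGAA. Its difference of −0.49 had an SE of 0.234 in limma and did not pass (adjusted p = 1 in the authors' deposited DESeq test).

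The genes that passed the authors' test upward were HMX1, PPP1R14B and CHCHD10. HMX1, a homeobox factor of eye and ear development, had 360, 351 and 359 normalized reads in A and 669, 550 and 597 in B. PPP1R14B, an inhibitor of protein phosphatase 1, had 820, 877 and 748 in A and 1502, 1274 and 1332 in B. In both genes B1 was the highest of all 6 libraries and A was tight, with no overlap. CHCHD10, a small protein of the mitochondrial intermembrane space tied to cristae, had 1238, 1189 and 1089 in A and 1773, 1834 and 1908 in B. Rises of 0.76, 0.75 and 0.65 on the log2 scale (limma SE 0.109, 0.103 and 0.087) passed the authors' deposited DESeq test at adjusted p of 0.0132, 0.00666 and 0.0322. Without A2 and B1 the differences were 0.67 for HMX1, 0.73 for PPP1R14B and 0.69 for CHCHD10, and after correction for transcript GC content they were 0.63, 0.62 and 0.52.

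The GC content of the 3 promoters was 81.7% for HMX1, 65.3% for PPP1R14B and 69.0% for CHCHD10 over 300 bases, against a median of 65.7% for the promoters of members. The GC box, searched as GGGCGG on both strands, matched 6, 3 and 1 times in these promoters. At least 1 match was held by 44.6% of all promoters and by 70.9% of those of members, so a match is common among the genes measured. The stretch of 120 bases with the most matches is shown for each, with matches in capitals on either strand.
HMX1, chr4:8871840-8871959, minus strand: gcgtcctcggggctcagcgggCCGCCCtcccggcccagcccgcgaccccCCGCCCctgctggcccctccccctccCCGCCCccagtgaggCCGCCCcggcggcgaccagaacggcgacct
PPP1R14B, chr11:64246905-64247024, minus strand: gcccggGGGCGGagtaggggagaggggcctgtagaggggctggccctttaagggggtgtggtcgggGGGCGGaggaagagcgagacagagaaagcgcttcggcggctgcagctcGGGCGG
CHCHD10, chr22:23767973-23768092, minus strand: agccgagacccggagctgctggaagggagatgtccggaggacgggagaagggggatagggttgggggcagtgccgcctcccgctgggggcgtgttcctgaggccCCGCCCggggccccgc
The ISRE core matched none of the 3 promoters.

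Behind the called genes came members that did not pass the authors' test but whose libraries were separated. TAF10, a subunit shared by the transcription factor TFIID and the acetyltransferase complex SAGA (chromosome 11, from 6606296 to 6612667, minus strand, GENCODE 29 on hg38), had 495, 517 and 484 normalized reads in A and 730, 761 and 829 in B. This is a difference of 0.63 (limma SE 0.097; adjusted p = 0.138 by the authors' deposited DESeq test). HES4, a repressor of the Notch pathway (chromosome 1, from 998962 to 1000172, minus strand), had 1557, 1292 and 1184 in A and 1758, 2166 and 1951 in B. Its difference was 0.54 (adjusted p = 0.361 in the same test). PPP1R35, a second regulator of protein phosphatase 1, found at centrosomes (chromosome 7, from 100435282 to 100436565, minus strand), had 388, 346 and 334 in A and 557, 563 and 511 in B. Its difference was 0.61 (adjusted p = 0.395 in the same test). GPR27, an orphan receptor coupled to G proteins (chromosome 3, from 71754050 to 71756496, plus strand), had 177, 141 and 134.7 in A and 241, 237 and 241 in B. Its difference was 0.67 (adjusted p = 0.519 in the same test). In all 4 genes the lowest B library lay above the highest A library, with the smallest gap in HES4.

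Among the 12 genes furthest up at a mean of 50 or more, separation sometimes came with a single high library. DHRS2, a short-chain dehydrogenase, had 36.9, 43.7 and 34.3 normalized reads in A and 47.0, 96.4 and 45.4 in B, and C11orf96 had 338, 291 and 262 against 360, 704 and 373. B2 was far above the other B libraries in both genes. Without B2 the differences were 0.26 for DHRS2 and 0.30 for C11orf96, from 0.70 and 0.69 with it. The long noncoding RNA CRNDE had 125, 146 and 87.0 in A and 182, 232 and 161 in B, a difference of 0.68. UTF1, a chromatin factor of undifferentiated cells, had 78.5, 63.7 and 66.1 against 92.5, 115 and 127, and ATP6V1B1-AS1, an antisense RNA, had 38.5, 44.9 and 40.4 against 65.2, 60.1 and 69.3. Differences of 0.67 and 0.64 followed for UTF1 and ATP6V1B1-AS1. Use of strand in the counting is not stated, so reads of an antisense RNA and its partner cannot be told apart. SNAPC5, a subunit of the complex that activates small nuclear RNA genes, had 64.6, 56.2 and 58.8 against 66.7, 116 and 94.3, with B1 close to A1, and C3orf80 had 59.99, 58.7 and 60.01 against 68.3, 115 and 97.9. Of these, none passed (adjusted p of 1 in the authors' deposited DESeq test).

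Downward, apart from IFIT1, the 12 leading genes with a mean of 50 or more had means between 53.3 and 74.8 normalized reads and no difference beyond that of PREX2. PREX2, an exchange factor for the GTPase Rac, had 69.2, 56.2 and 77.2 normalized reads in A and 56.1, 40.5 and 37.0 in B. A2 and B1 differed by less than 1 read, and without these libraries the difference was −0.90, from −0.59. ADAMTS20, a secreted metalloprotease, had 64.6, 62.4 and 69.8 in A and 57.6, 37.7 and 35.8 in B, a difference of −0.58, and −0.85 without A2 and B1. FAM3C, a secreted cytokine-like protein, owed much of its difference of −0.50 to A2, with 67.7, 125 and 71.0 in A and 63.7, 55.9 and 65.7 in B, and stood at −0.17 without A2. The others were LOC730183 (−0.53), DRP2, a relative of dystrophin (−0.52), CASD1, which acetylates sialic acids (−0.51), CDKL1, a kinase (−0.50), EP400NL, a pseudogene (−0.50), PRICKLE2, a planar polarity protein (−0.50), and TTC21A, a protein of ciliary transport (−0.47). For these genes, adjusted p was 1 in the authors' deposited DESeq test.

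**Figure D2:**
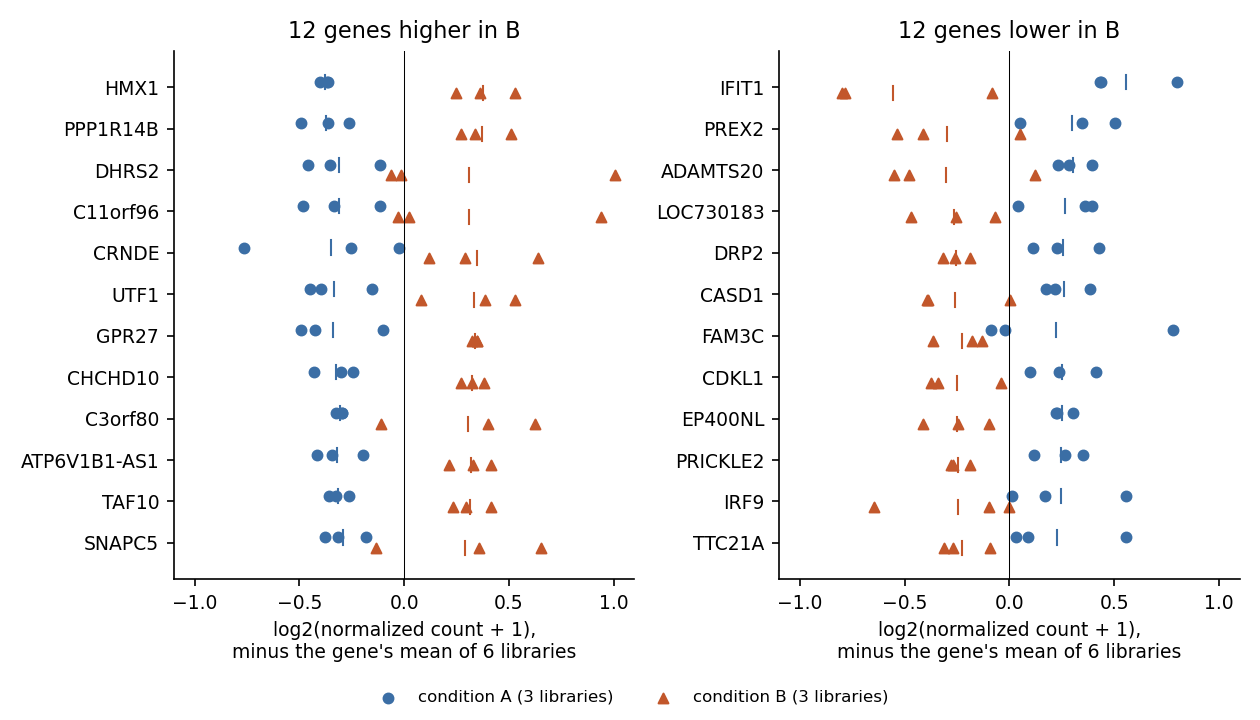
Log2(normalized count + 1) of each library, minus the gene's mean over 6 libraries, for the 12 genes furthest up (left) and the 12 furthest down (right) among those with a mean of 50 or more and no overlap. Circles are libraries of condition A, triangles those of condition B, short bars the means of 3 libraries. HMX1, CHCHD10, TAF10 and GPR27 show wide gaps, while in DHRS2 and C11orf96 1 library of B lies far to the right, and in PREX2 and IRF9 libraries of both conditions almost touch.

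Among members with a mean of 10 to 50, the genes furthest apart besides IFIT2, OASL and IFIT3 were few-read genes of mixed roles. EPHA5-AS1, a long noncoding RNA, had 15.4, 14.98 and 17.2 normalized reads in A and 6.07, 6.98 and 7.16 in B, a difference of −1.12 with tight libraries on both sides. PTTG3P, a processed pseudogene of securin whose reads may be shared with its parent gene, had 27.7, 27.5 and 15.9 against 13.7, 8.38 and 7.16, a difference of −1.20. Upward, FCRLB, an Fc receptor-like protein, had 20, 21.2 and 11.02 against 47.0, 29.3 and 31.0, a difference of 1.00. LOC103091866, RPGRIP1 and TEX22 differed by 1.31, 1.16 and 0.91 at means between 10.4 and 14.0. Of these 6 genes, none passed, with adjusted p of 1 in the authors' deposited DESeq test.

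The direction of a gene's difference followed the GC content of its transcript. Of the 14051 genes, 13692 (97.45%) were matched to a GENCODE 29 transcript. Spearman's rank correlation between the difference and GC content was 0.413 across these genes, which are not independent replicates and share the 6 libraries. In the decile of lowest GC content, from 30.9% to 38.8%, the median difference was −0.11 and 21.8% of genes were higher in B. In the decile of highest GC content, from 62.3% to 76.8%, the median was 0.10 and 78.5% were higher. Genes with no overlap showed the same split, with a median GC content of 59.9% for the 590 that were higher and 44.7% for the 517 that were lower, against 49.2% for all.

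The libraries behind this trend did not line up by condition. The deviation of a library from the gene means correlated with GC content at a rank correlation of −0.107 in A1, −0.515 in A2, 0.251 in A3, −0.176 in B1, 0.133 in B2 and 0.535 in B3. A2 was thus the library with the most reads of AT-rich transcripts and B3 that with the most of GC-rich ones, while A3 leaned the same way as B3. Without A2 the rank correlation of the difference was 0.048, without B3 it was 0.208, and without both A2 and B1 it was 0.183. Whether GC content plays a part in the differences of single genes was not tested.

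Shorter transcripts also had the higher values in B. The rank correlation with transcript length was −0.268, and −0.165 after correction for GC content. The decile of shortest transcripts, up to 1431 bases, had a median of 0.06 with 63.5% of genes higher, and the decile of longest ones, from 7583 bases, had −0.08 with 24.8% higher. Length correlated with the library deviations at 0.221 in A1, 0.050 in A2, 0.086 in A3, 0.033 in B1, −0.113 in B2 and −0.270 in B3, so here all A libraries were above 0 and B1 was too. The 590 genes higher without overlap had a median length of 2200 bases and the 517 lower ones 4532 bases, against 3396 bases for all.

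**Figure D3:**
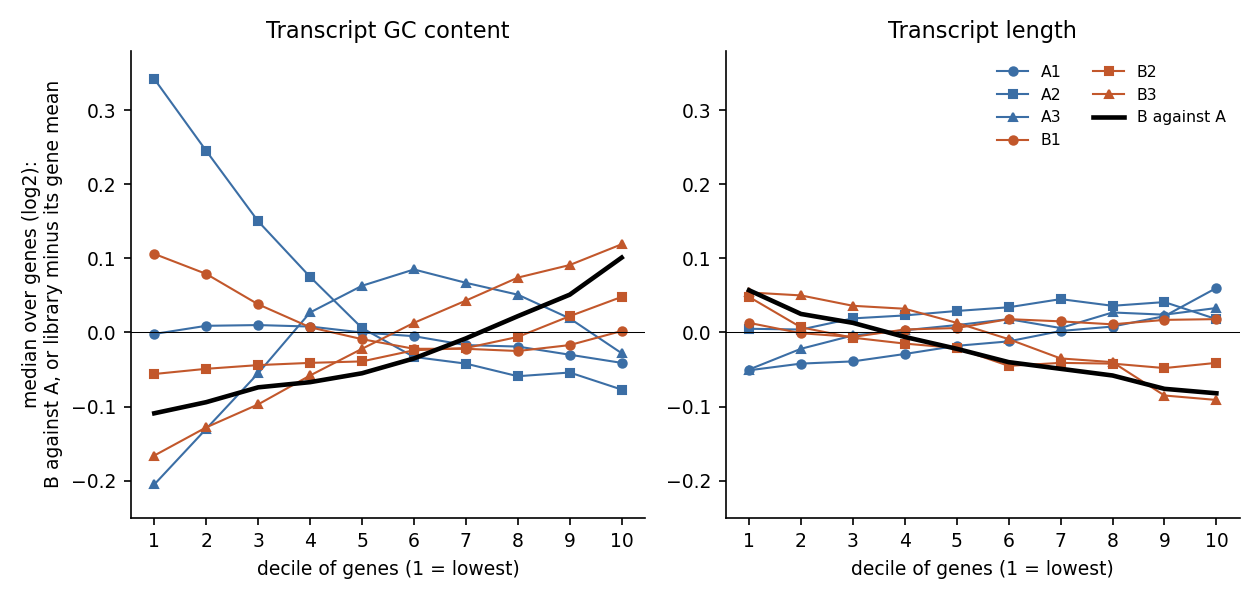
Medians over deciles of genes by GC content (left) and length (right) of the transcript. The black line is the difference of B against A, and coloured lines are single libraries minus the gene's mean over 6 libraries (blue for A, orange for B). The black line climbs from −0.11 to 0.10 with GC content and drops from 0.06 to −0.08 with length, and A2 stands highest at low GC content.

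Chromosomes differed in the same sense. Genes of chromosome 19, the most GC-rich at a median of 59.4%, had a median difference of 0.05, with 631 of 964 higher in B and 84 above and 11 below without overlap, beside 590 and 517 of all 14032 genes (4.2% and 3.68%). Chromosomes 16 and 22 followed at 0.02 and 0.01, and all other chromosomes had medians below 0, down to −0.06 on chromosome 18. After correction for GC content chromosome 19 stood at 0.01, and all chromosomes lay between −0.03 and 0.02.

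Gene types differed too. Of 161 long intergenic noncoding RNAs 94 were higher in B (median 0.06), as were 157 of 261 antisense RNAs (median 0.06), whereas the median of 12929 protein-coding genes was −0.03. As a list, long intergenic and antisense RNAs kept a median of 0.08 after correction for GC content and 0.06 without A2 and B1, but at −0.002 without A2 it lost its sign. Without B2 the list's median was 0.01, and B2 stood above the gene means by a median of 0.16 on this list. In the decile of all genes with the lowest mean counts B2 also stood at 0.16, with a median difference of 0.02. Of the 452 genes on this list, 20 were higher and 15 lower without overlap (4.43% and 3.32%), near the shares of all genes.

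Gene lists were read by the count of members in each direction and their median, beside the same for all genes, of which 42.2% were higher in B at a median of −0.03. No list was tested as a whole, and a direction is a description of these libraries. Scaling by library totals moved the median of all genes to −0.01. It was −0.006 after correction for GC content, −0.007 without A2 and B1, −0.003 without A2, −0.015 without B2 and −0.021 without B3. Medians of lists under the correction or without libraries use means of log2(normalized reads + 1) over libraries. They are thus a slightly different measure from the log2 ratio of the deposited means. Of the 42 lists, homeobox genes outside the HOX clusters had the largest share of members above A without overlap. Smaller lists came close, the TCA cycle and fatty acid oxidation at 11.1% (5.56% below) and the peroxisome at 10.3% (6.90% below). The 105 homeobox genes had a median of 0.02, with 58 higher. Of these, 13 lay above A without overlap and 2 below (12.4% and 1.91%), against 4.2% and 3.68% of all genes. MNX1, a factor of motor neurons and pancreas, had 569, 464 and 508 normalized reads in A and 649, 788 and 752 in B, a difference of 0.51. UNCX, a factor of the somites, had 166, 170 and 116 against 218, 214 and 227, a difference of 0.54. VAX2, a factor of the ventral retina, had 56.9, 51.2 and 46.5 against 69.8, 76.8 and 88.4, a difference of 0.59. UNCX and VAX2 were named after their values were seen. ADNP, a homeobox protein of chromatin, had 1789, 1856 and 1836 against 1541, 1582 and 1729, a difference of −0.18, and EN2, the most abundant after it, differed by 0.02. Of the list, HMX1 alone passed the authors' deposited DESeq test (adjusted p = 0.0132). The list's transcripts had a median GC content of 55.1%. Its median difference was 0.018, and 0.015 after correction for GC content, while that of all genes moved from −0.028 to −0.006. The 37 HOX genes had a median of 0.01 (−0.03 without B3), with 22 higher, led by HOXB8 (397, 398 and 380 against 426, 439 and 507).

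In mitochondrial lists single genes stood out while medians lay near that of all genes, with signs that flipped without A2 or without B2. CHCHD5, of the intermembrane space, had 102, 127 and 127 normalized reads in A and 191, 182 and 159 in B, a difference of 0.57. PET100, an assembly factor of cytochrome c oxidase, had 84.6, 89.9 and 85.7 against 135.0, 119 and 119, a difference of 0.52. The import and intermembrane space list as a whole had 16 of 38 members higher and a median of −0.01, and its abundant members TOMM20 and HSPA9 differed by −0.09 and −0.02. Mitochondrial ribosomal proteins had 31 of 77 higher (median −0.03), with MRPS24 at 0.48. Enzymes of the TCA cycle and fatty acid oxidation had 17 of 36 higher (median −0.02). Of these 36 genes, 4 lay above A without overlap and 2 below (11.1% and 5.56%), against 4.2% and 3.68% of all genes. ECI1 differed by 0.30 and ACADS by 0.38, both without overlap, and MDH2 by 0.02. None of these genes passed (adjusted p = 1 for each named one in the authors' deposited DESeq test).

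Large complexes of the nucleus had most members slightly lower in B. Cohesin, condensin and SMC5/6 genes, whose products hold and fold chromosomes, were lower in 23 of 26 cases with a median of −0.11, among them WAPL, a cohesin release factor, at −0.29 (1129, 1383 and 1048 normalized reads against 1024, 982 and 917). Nuclear pore and transport genes were lower in 40 of 46 (median −0.08), including KPNB1, importin beta, at −0.12. Enzymes of histone methylation and acetylation were lower in 48 of 60 (median −0.08), including KMT2C at −0.30, and chromatin remodellers in 34 of 46 (median −0.05), including BPTF at −0.16. RNA polymerases I and III were lower in 27 of 35 (median −0.05), whereas RNA polymerase II and its general factors were lower in 26 of 42 (median −0.02) in spite of TAF10. After correction for GC content the medians were −0.06, −0.03, −0.05, −0.03, −0.05 and 0.02 in this order. Without A2 and B1 they were −0.05, −0.09, −0.07, −0.04, −0.10 and 0.04. Cohesin stood at 0.03 without A2 and RNA polymerase II at 0.07, and without A2 nuclear pore genes stood at −0.006, RNA polymerases I and III at −0.007, chromatin remodellers at −0.01 and histone enzymes at −0.07. A2 stood above the gene means by a median of 0.27 for cohesin genes and B3 below by −0.17. The share of members apart on these lists, at most 4.35% downward outside RNA polymerases I and III (5.71%, 2 genes), was near the 3.68% of all genes.

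Lists of translation, decay and membrane traffic also had more members lower than higher. Translation initiation factors were lower in 34 of 40 cases (median −0.08), with EIF4A2 at −0.21 and EIF4G1 at −0.05. Factors of nonsense-mediated decay and mRNA turnover were lower in 36 of 48 (median −0.10), with the kinase SMG1 at −0.25. Genes of COPI, COPII and Golgi transport were lower in 31 of 38 (median −0.09), with the coat protein SEC24D at −0.33 (398, 429 and 426 normalized reads against 388, 286 and 324). Their medians shrank to −0.02, −0.04 and −0.04 with the correction for GC content, and without A2 they were −0.005, −0.001 and −0.09. Chaperonin, prefoldin and tubulin genes were lower in 26 of 31 (median −0.05), and this grew to −0.06 with the correction and −0.10 without A2 and B1, yet the median was 0.01 without B2. Elongation and termination factors were lower in 14 of 25 (median −0.02, but 0.04 after the correction).

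ZNF genes, the largest class of transcription factors in the genome, were lower in 266 of 420 cases with a median of −0.07, at a median GC content of 43.7%. ZNF562 had 291, 320 and 287 normalized reads in A and 229, 232 and 210 in B, a difference of −0.42 with no overlap, and ZNF669 differed by −0.62 at a mean of 40.3. The abundant ZNF703 and ZNF768 differed by 0.07 and 0.13. Of the list, 17 genes lay below without overlap and 9 above (4.05% and 2.14%), against 3.68% and 4.2% of all genes. The median was −0.01 after correction for GC content, 0.01 without A2 and B1 and 0.04 without A2.

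Signalling lists stayed near the median of all genes while single members stood out. In the TGF-beta, activin and BMP list (27 of 44 lower, median −0.06), the inhibitor SMAD6 had 491, 369 and 393 normalized reads in A and 479, 575 and 622 in B, a difference of 0.42, and ID4, a BMP target, differed by 0.32. A1 and B1 overlapped in both. Of this list, 5 members lay below A without overlap and 3 above (11.4% and 6.82%), against 3.68% and 4.2% of all genes. After correction for GC content the list's median was −0.002. The Notch list was higher in 19 of 37 (median 0.02, but −0.01 after correction for GC content), with HES4 at the top, the glycosyltransferase LFNG at −0.60 and NOTCH2 at −0.14. Wnt genes were lower in 25 of 43 (median −0.07, −0.02 at the least with a single library left out), with the receptor FZD2 at 0.26 and CTNNB1, beta-catenin, at −0.12. Hippo genes were higher in 12 of 26 (median −0.02), with 0 members apart in either direction. Among phosphatase 1 and 2A genes 26 of 52 were higher (median 0.00). PPP1R14B passed the authors' deposited DESeq test (adjusted p = 0.00666), and the catalytic and scaffold subunits PPP1CC and PPP2R1A each differed by −0.02.

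The remaining lists follow with their medians, many of which rested on library A2. Deubiquitinases were lower in 45 of 61 cases (median −0.08), centrosome and cilium genes in 52 of 74 (−0.08), kinesins, dynein and dynactin in 42 of 60 (−0.07), actin cytoskeleton genes in 31 of 43 (−0.06), and genes of the translocon and oligosaccharyl transferase in 23 of 34 (−0.05). Metallothioneins and metal response genes were lower in 15 of 20 (median −0.11), with MT1X at −0.36 (67.7, 107 and 142 normalized reads against 92.5, 68.4 and 86.0, overlapping). Purine and pyrimidine synthesis genes were lower in 19 of 31 (−0.04), Mediator genes in 20 of 33 (−0.04), autophagy genes in 24 of 36 (−0.04), peroxisome genes in 18 of 29 (−0.02), clock genes in 15 of 24 (−0.03), cullin ligases and F-box proteins in 64 of 106 (−0.03), serine and one-carbon genes in 12 of 22 (−0.02) and aminoacyl-tRNA synthetases in 20 of 37 (−0.01). Without A2 the medians were 0.003 for centrosome and cilium genes, 0.01 for actin cytoskeleton, 0.05 for the translocon list, 0.03 for cullin ligases, 0.04 for peroxisome genes, 0.03 for synthetases and between 0.002 and 0.007 for autophagy, purine and one-carbon genes. Kinesins and deubiquitinases then stood at −0.02 each, metallothioneins at −0.03 and Mediator at −0.006. Lysosome genes and cadherins were even, at 19 of 38 and 17 of 34 higher, though the median of cadherins was −0.12 without A2. Amino acid transporters (13 of 25 higher) and small nucleolar RNA host genes (11 of 21 higher) had medians of 0.00 each, but 0.13 each without A2 and B1. The 11 microRNA host genes had a median of −0.11, with MIR17HG at −0.35.

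**Figure D4:**
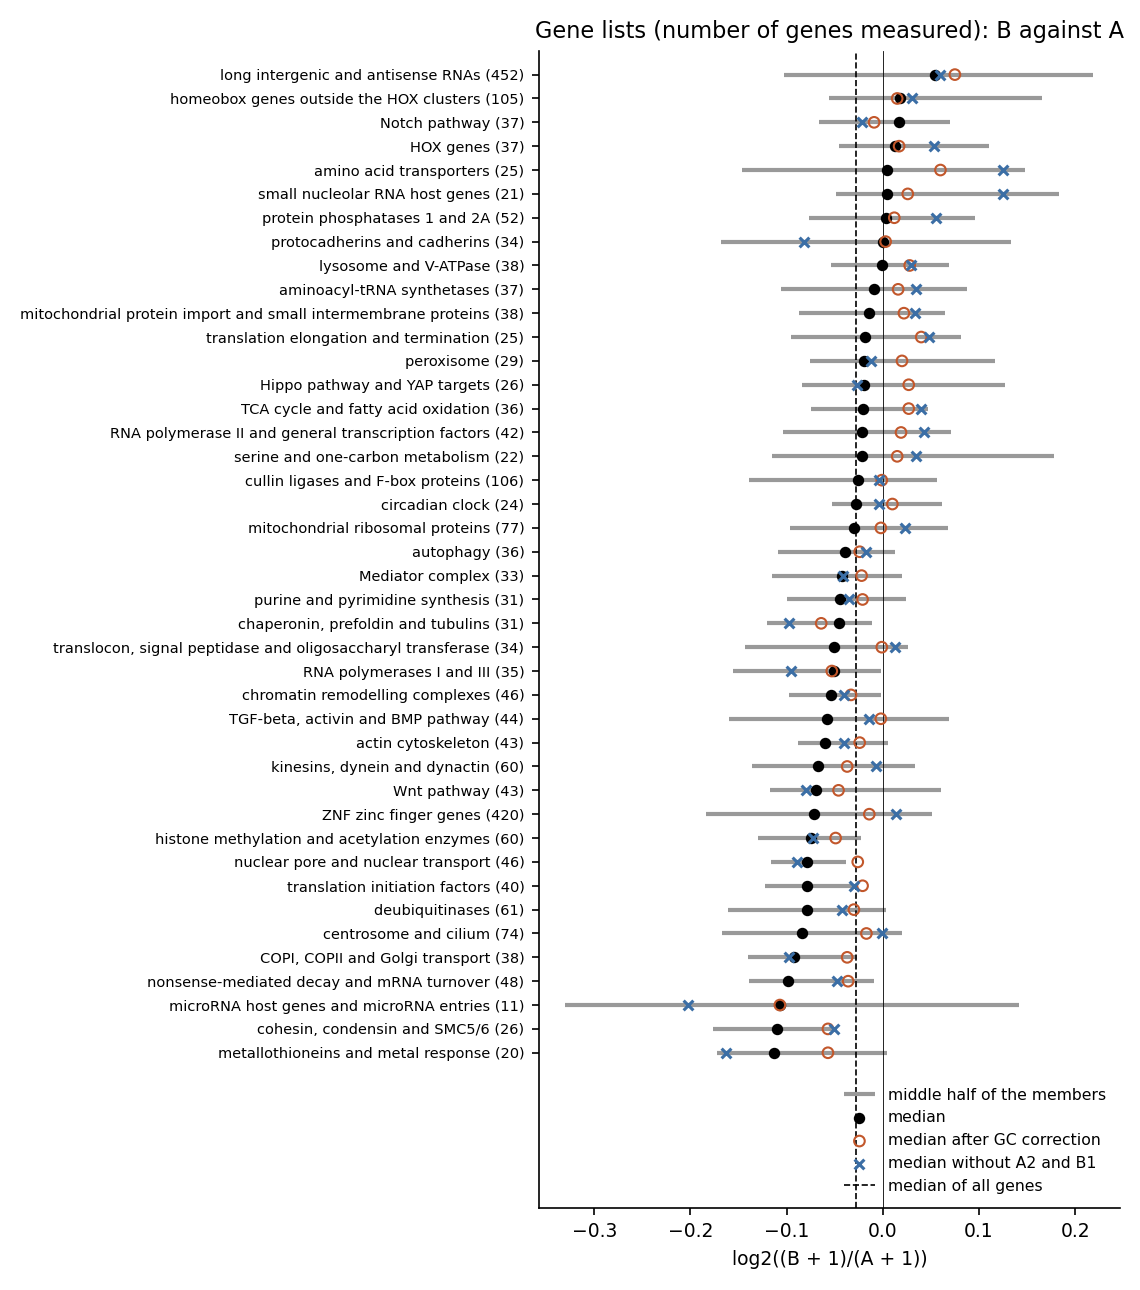
Median (black dot) and middle range from the lower to the upper quartile (grey bar) of log2((B + 1)/(A + 1)) over the measured members of 42 gene lists. Open circles are medians after correction for GC content and crosses those without A2 and B1. Most medians lie between −0.11 and 0.02, and the dashed line marks the −0.03 of all genes, without the correction and with all libraries.

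The genes with the largest spread within a condition, chosen for that spread, are described next. CHAC1, an enzyme that degrades glutathione and is a target of ATF4 and DDIT3, had 972, 267 and 785 normalized reads in A1, A2 and A3 and 132, 952 and 1092 in B1, B2 and B3. DDIT3 itself, the stress factor CHOP, had 560, 223 and 446 against 155, 760 and 564, and INHBE, an inhibin beta chain induced by the same stress, had 99.99, 24.96 and 60.01 against 19.7, 236 and 86.0. All 3 were lowest in A2 and B1. HSPA1B, an inducible HSP70, ran the other way, with 660, 3106 and 1336 in A and 5314, 587 and 691 in B, so that B1 and A2 held the highest levels. Each of the 4 overlapped between conditions, at differences of 0.11 for CHAC1, 0.27 for DDIT3, 0.88 for INHBE and 0.37 for HSPA1B (adjusted p of 1 in the authors' deposited DESeq test). HSPA1B has a near-identical neighbour, so its reads are uncertain.

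In condition A the genes with the largest spread were AT-rich ones that stood highest in A2 and lowest in A3. COPS2, of the COP9 signalosome, had 354, 962 and 169 normalized reads in A1, A2 and A3 and 532, 344 and 294 in B. DNTTIP2, a nucleolar protein, had 403, 1443 and 281 against 899, 454 and 405, and MRPL50, TRIAP1 and CCDC73 had the same order, A2 above A1 above A3 in A and B1 highest in B. Transcript GC content was 33.7% for COPS2, 39.9% for DNTTIP2, 35.0% for MRPL50, 43.6% for TRIAP1 and 30.9% for CCDC73. WDR31, of the 5 in condition B, had 64.6, 21.2 and 46.5 against 22.8, 137 and 45.4, with A2 and B1 low as for CHAC1.

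**Figure D5:**
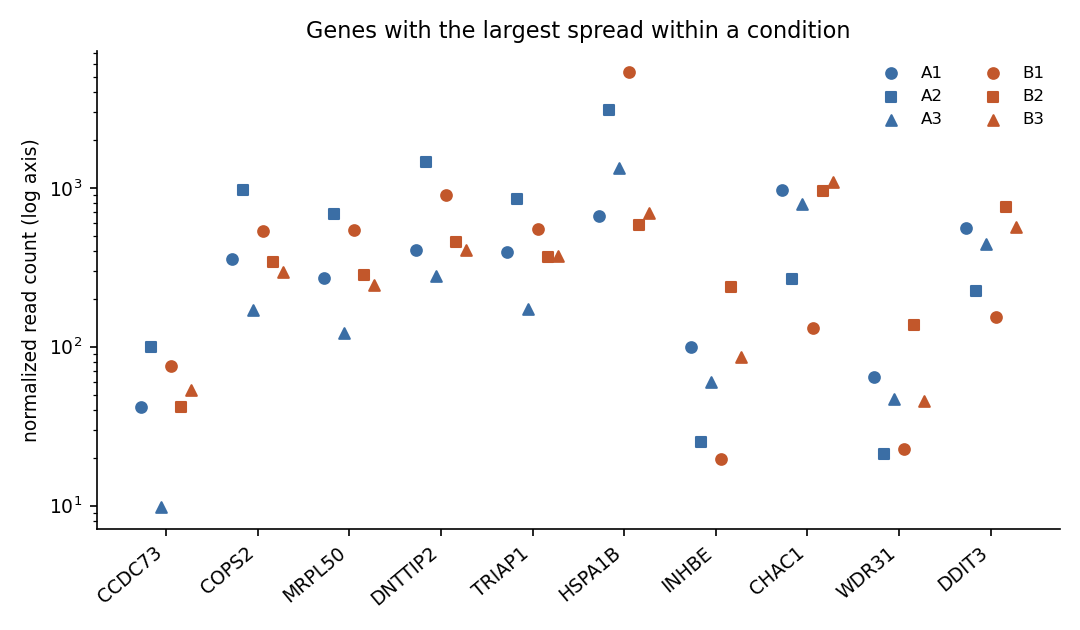
Normalized read counts (log axis) in each library for the 10 genes with the largest SD of log2 counts within condition A (the 5 on the left) or B (the 5 on the right). Blue is A and orange is B. A2 (blue square) and B1 (orange circle) are high together on the left and for HSPA1B, and low together for INHBE, CHAC1, WDR31 and DDIT3.

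The most abundant genes differed little. EEF2, a translation elongation factor and the gene with the highest mean among those named (70750 normalized reads), differed by 0.12. ACTG1 (40180) differed by −0.07, and the ribosomal protein genes RPS4X (35220), RPS6 (34770) and RPL4 (34670) by −0.04, 0.04 and 0.00. Their reads were too many to be worked out for single libraries, so no spread is given.

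The same contrast under the luciferase sgRNA gives a measure of what is shared. There the B libraries were deeper, at 19383498 to 38143003 gene reads against 5885161 to 8237288 in A, so depth and condition cannot be told apart in that table, and it is not known that A and B mean the same in both tables. limma's test of the difference between the 2 contrasts called 0 of 13962 genes at an adjusted p under 0.05, with 1310 at an unadjusted p under 0.05. The 5 genes with the smallest p were GPR27, PPP1R14B, PPP1R35, CHCHD10 and LOC100506127, each with an adjusted p of 0.485 in limma. Both the count and this order hold only if A and B mean the same in both tables. GPR27 differed by 0.67 under 6T and by −0.29 under luciferase (limma SE 0.131 for the latter), PPP1R14B by 0.75 and −0.09 (SE 0.122), PPP1R35 by 0.61 and −0.09 (SE 0.104) and CHCHD10 by 0.65 and 0.05 (SE 0.094). LOC100506127 had 302, 287 and 307 normalized reads in A and 237, 232 and 227 in B under 6T, a difference of −0.37, against 0.28 (SE 0.101) under luciferase. IFIT1 differed by −1.08 under 6T and −0.89 under luciferase, with an adjusted p of 0.74 for the difference in limma. With the luciferase contrast turned, so that its A is set against the B of 6T, limma called 2 of 13962 genes, with 433 at an unadjusted p under 0.05. These were IFIT2 (−4.43, SE 0.487) and CCL5 (−5.13, SE 0.597), each with an adjusted p of 0.00593. IFIT1 then differed by −2.01 (adjusted p = 0.0709 in limma) and GPR27 by 0.39 (adjusted p = 0.963 in limma). Whether any gene responds differently under the 2 sgRNAs therefore depends on which condition held Cas9 in each table, which is not known here.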

How the data were processed

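PolyA RNA of 6 HEK293T libraries under the 6T sgRNA (3 with Cas9, 3 without) was compared, beside 6 under luciferase. The submitters' processing notes name STAR, hg38, HTSeq and DESeq as the authors' tools and build, with no versions. The deposited signal values are the authors' mean normalized read counts per condition, per the file headers, beside a ratio (fold change), its log2 and the authors' p-values, raw and adjusted. Rows of reads without a gene (17.79% without feature, 1.40% ambiguous and 19.4% aligned to several places in condition A, 17.42%, 1.40% and 19.92% in B, as shares of all counted reads) were left out. 0 columns belonged to samples outside the study.

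Since means are sums over 3 libraries of whole reads divided by size factors, reads per library were searched for. A single solution was found for 99.903% of means above 0 in condition A and 99.908% in B, and 17 and 16 genes above a limit of 20000 were left out. Genes so taken at their mean held about 5% of a library (5.15% to 5.47%). Reads of all 6 libraries were had for 14032 of 14051 members. limma 3.58.1 (R 4.3.3), using its trend option, modelled log2(normalized reads + 1) over all these genes with Benjamini-Hochberg adjustment. The same fit was run on simulated counts drawn independently for each library. These lack the component shared by A2 and B1, so that run does not show how limma performs on these libraries. Correction for GC content subtracted the median of each library's deviations in 20 bins of transcript GC content (GENCODE 29). Promoters came from RefSeq (GRCh38.p14), for 24 of 35 leading genes. Groups of 3 limit precision, and counting error was not modelled apart.

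Named genes are the authors' called genes, the 12 highest and 12 lowest without overlap at a mean of 50 or more (5 and 5 at 10 to 50), 2 per list by p and 2 by level, the 5 most abundant, the 5 most variable per condition and the 5 with the smallest p between sgRNAs. The members and the 42 lists were chosen with earlier results of these data known. Alternatives were other pseudocounts, minima, scaling, fits, GC correction and leaving out libraries. Leaving out A2 and B1 together and turning the luciferase contrast were chosen after seeing the data. A few genes that this rule names are not reported here.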

Additional observations from a re-analysis of the deposited data

How the results depend on the processing

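No paired analysis was possible because the recovered libraries carry no replicate number. The 8 genes of the authors' deposited test were also 8 at an adjusted p under 0.1. limma called 0 genes in each alternative except with the spread shared over 12 libraries, which called 3. Its count at an unadjusted p under 0.05, 330, was 527 with no minimum and 865 without A2 and B1, and ranged from 162 (without B3) to 819 (without B1) with single libraries left out. The 230 genes at 1.5-fold became 103 with a pseudocount of 5, 33 at a mean of 50 or more, 2137 with no minimum (low counts), 467 without A2 and B1, and 292 to 452 without single libraries. Of the 230, 63.9% were higher in B, against 36.0% without B2, 52.4% without A3, 53.3% with no minimum and 84.8% at a mean of 50 or more. The 1107 genes without overlap became 1851 to 3500 without single libraries and 5196 without A2 and B1, where fewer libraries are easier to separate. The rank correlation with GC content, 0.413, was 0.0 after its correction by construction, and 0.048 to 0.556 without single libraries. The difference between sgRNAs called 0 genes in each of 8 alternatives and 2 with the luciferase contrast turned, with 682 (without B3) to 2014 (without B1) at an unadjusted p under 0.05 where single 6T libraries were left out. Of 42 list medians, 26 changed sign under at least 1 of 9 alternatives. Of 35 leading genes, none changed sign, but nearly all were chosen for having no overlap between conditions. For those, leaving out libraries could not turn the sign. Depth limits genes with a mean of 10 to 50, whose median absolute difference was 0.223, against 0.0895 above.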
